A study of Saccharomyces cerevisiae with 22 samples.

Results

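The transcriptome of *set2*Δ yeast was compared with that of a common wild type reference on 2 arrays, out of 22 arrays in the series. These are the arrays labelled as *set2* deletion, a and b, and every feature on them was described: 6373 features, of which 5311 carry a gene name and the rest are probes without one. Each array carried RNA of *S. cerevisiae* BY4742 lacking *SET2* in 1 dye and RNA of wild type BY4742 in the other. On array a *set2*Δ was labelled with Cy3 and the reference with Cy5, and on array b the dyes were swapped. The series design text gives the opposite dye for the first array, and the dyes used here are those of the labels of each array. The *set2*Δ cells were, per the series design, 2 independent cultures in early mid-log phase in SC, a defined medium with glucose. The reference was RNA from a single large wild type culture, so that it is 1 control sample and its own spread between cultures does not enter the p-values. The labels say only that *SET2* was deleted and name no marker cassette. As context, the arrays of *eaf3*Δ, *rco1*Δ, *ctk1*Δ, *lrp1*Δ, *rrp6*Δ and *rtt103*Δ were used, 2 arrays each, also BY4742 in SC against the same reference. The other arrays of the series entered the fit and the centring on all 12 profiles. They are *ctk1*Δ and *rpb1-S2A* (labelled matA) in YPD, another growth medium, and the temperature-sensitive mutants *sen1-1*, *pcf11-2* and *pcf11-ts2*. The labels name the same RNA isolation protocol for both *set2*Δ arrays, all *lrp1*Δ, *rrp6*Δ and *rtt103*Δ arrays and the a arrays of *eaf3*Δ, *rco1*Δ and *ctk1*Δ, and a high-throughput protocol for the b arrays of these last 3 strains.

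Set2 is a histone methyltransferase that rides on elongating RNA polymerase II, by binding its tail phosphorylated by the kinase Ctk1, and methylates lysine 36 of histone H3 in gene bodies. In yeast the mark is read by Eaf3, a subunit with Rco1 of the Rpd3S histone deacetylase complex, which removes acetyl groups behind the polymerase. Loss of the pathway is known for transcription that starts inside genes, at cryptic promoters such as the one within *STE11*. The array probes do not separate a full-length transcript from one that starts within the gene.

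The deleted gene was read first, as a check of the labels. *SET2* had normalised signals of 56.5 on array a and 56.9 on array b in *set2*Δ, against 507.2 and 490.8 in the reference. The *set2*Δ signals lie just above the offset of 50 that the background correction adds, so the 8.8-fold difference (log2 −3.14, SE 0.09, limma adjusted p = 2.98e-10) is compressed by that offset. The log2 ratios were −3.17 and −3.11, so both dye orientations gave the same direction. The genes next to *SET2* on chromosome X were not called. Of the 4 neighbours on each side in annotation order, 6 were measured by name, with log2 ratios between −0.29 for *ERG20* and 0.40 for *QCR8*. The mating type and auxotrophic marker genes gave no call either, with 0 of 7 a-specific, 0 of 4 alpha-specific and 0 of 5 auxotrophic genes past the threshold.

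By correlation and spread, the 2 arrays agreed less than those of other strains. The Pearson correlation of their log2 ratios across features was 0.529, the lowest of 10 profiles with 2 arrays, where the highest was 0.967, and the median SD of a feature between the arrays was 0.117 on the log2 scale, the highest of the 10. The share of features with the same sign on both arrays was 59.1%, beside 58.4% in *eaf3*Δ. The median signal was 765.8 and 907.7 in *set2*Δ on arrays a and b, against 1234 and 488.1 in the reference. Between 98.2% and 99.6% of features lay above background in each channel of these arrays, and none of the called features was below background on both arrays of a group or saturated. In bulk RNA, fewer cells expressing a gene and less RNA per cell cannot be told apart.

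A feature was called at an adjusted p under 0.05 and a fold change over 1.7, which is 0.766 on the log2 scale. In *set2*Δ, 86 features were higher than in the reference (1.35% of 6373) and 17 were lower (0.267%), together 103 (1.62%). Of these, 71 rises and 12 falls had gene names. All 103 had the same sign on both arrays. Without the fold minimum, 965 features were higher and 740 lower, so small differences ran in both directions while those past the fold minimum were mostly rises. Centring each feature on the median of the 12 profiles of the series turned this split, to 17 higher and 64 lower, and centring on the 6 other deletions gave 29 and 29. The 12 profiles include *set2*Δ itself, the temperature-sensitive mutants and the strains grown in YPD. With array b left out the fit called 161 features, and with array a left out 81. In a fit with 1 *set2*Δ array there is no spread between *set2*Δ arrays, and that array was assumed to vary like those of the other profiles, here and wherever an array was left out. Just inside the fold minimum lay *VMR1* (0.79), *PXA1* (0.78) and *YOR072W* (0.77), and just outside it *ATX1* (0.765), *NCE103* (0.756) and *XBP1* (0.755).

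**Figure D1:**
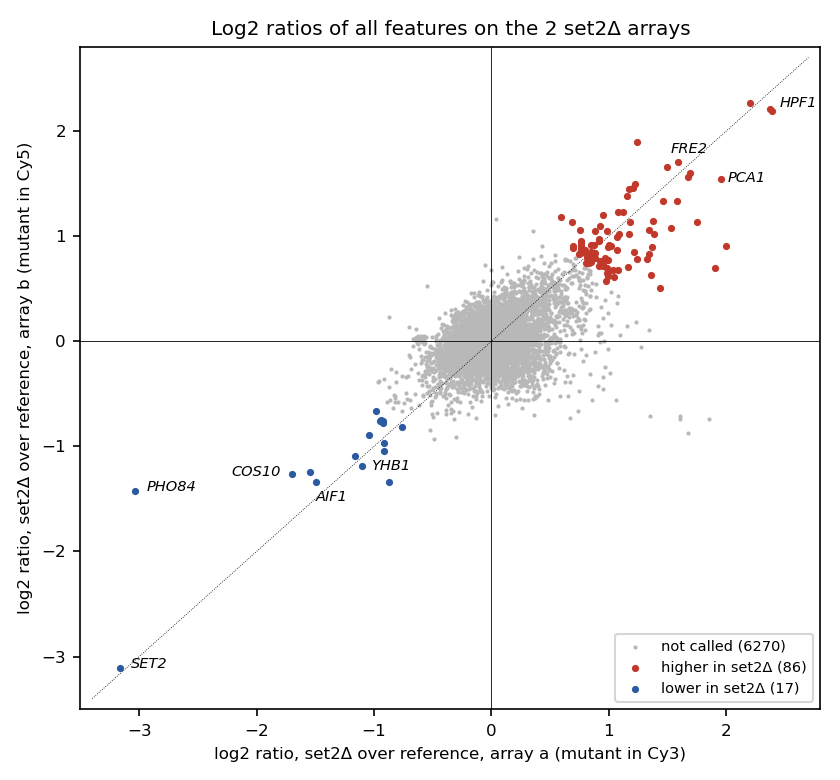
Log2 ratio of *set2*Δ over the reference on array b against that on array a for 6373 features, with the 86 higher features in red, the 17 lower in blue and the rest in grey; the dotted line marks equal values. Most called features lie near that line, *PHO84* (−3.04 on array a and −1.43 on array b), *YHL009W-B* (1.91 and 0.69) and *AI1* (1.43 and 0.51) stand off it, and a few grey points at the lower right were high on array a and low on array b.

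The largest rise among named genes was that of *HPF1*, which encodes a heavily glycosylated mannoprotein of the cell wall. *HPF1* had signals of 3801 and 4226 in *set2*Δ, against 731.9 and 913.9 in the reference. The groups did not overlap, and the rise was 4.9-fold (log2 2.29, SE 0.11, adjusted p = 3.42e-08). *HPF1* was also high in other strains measured against this reference, with log2 ratios of 1.71 for *eaf3*Δ, 1.99 for *rco1*Δ and 3.32 for *ctk1*Δ, and centred on the 12 profiles its ratio in *set2*Δ was 0.78. Among 21 cell wall mannoprotein genes, *HPF1* and *YGP1*, a secreted glycoprotein of nutrient-limited cells, rose and none fell, beside 1.35% of all features that rose. The median log2 ratio of the list was 0.13 against −0.01 over all features. *YGP1* had log2 ratios of 0.76 and 0.95 on the arrays, and its call was lost when either array was left out. Of 8 flocculin genes, which encode cell surface adhesins, *FLO10* rose (0.86 and 0.79, adjusted p = 3.62e-07). With no background correction *FLO10* was at 0.64, below the fold minimum. *FLO9* at 0.74, *FIG2* at 0.74 and *FLO5* at 0.57 lay below the fold minimum, while *FLO1* was at −0.03, and the median of the 8 was 0.50. The flocculin genes share repeated sequences, so that a probe may report more than 1 of them.

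Of 10 genes reported to hold internal cryptic promoters, *PCA1* and *STE11* rose and none fell, beside 1.35% of all features that rose. *STE11*, the kinase that starts the mating and osmosensing MAP kinase cascades, had signals of 304.2 and 403.6 in *set2*Δ, against 139.7 and 171.6 in the reference. Its log2 ratios of 1.12 and 1.23 were close to each other, and its SE of 0.05 was among the smallest of the named rises (mean 1.18, adjusted p = 4.31e-09). *PCA1*, a cadmium-exporting ATPase, had signals of 720.6 and 617.7 in *set2*Δ, against 186 and 211.4 in the reference, a log2 ratio of 1.75 (SE 0.09, adjusted p = 6.27e-08). Both genes were higher in *set2*Δ in each dye orientation. The other 8 genes were not called. *FLO8*, the flocculation activator, was at 0.44, *LCB5* at 0.42 and *SMC3* at 0.40, while *SPB4* was at −0.14. The median over the 10 genes was 0.31, and 9 of the 10 were positive on both arrays, compared with 1866 of all 6373 features. That comparison takes no account of gene length, and 82.3% of the longest class of genes, given below, had a positive ratio in the fit. Centred on the median of the 12 profiles, the median was 0.14 and *PCA1* alone of the list was called.

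The genes of the pathway itself changed little. Of 21 genes of H3K36 methylation, its removal and the Rpd3S complex, *SET2* fell and no other gene was called. *EAF3* was at −0.09, *RPD3* at −0.07, *SIN3* at 0.22 and *CTK1* at 0.07. *RCO1* differed between the arrays, at 0.77 on array a and 0.07 on array b. The 11 histone genes lay between −0.08 and 0.06. Among chromatin genes outside these lists, *SAS4*, a subunit of a histone H4 acetyltransferase, rose by 1.20 (1.35 and 1.06), and *HDA3*, a subunit of the Hda1 deacetylase, by 1.05 (1.33 and 0.78).

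Of 15 genes of metal reduction and copper uptake, 3 rose and none fell, beside 1.35% of all features that rose, and the median of the list was 0.18. The 3 were *FRE2* and *FRE7*, plasma membrane reductases that prepare iron and copper for uptake, and *FRE5*, a related protein. Centred on the 12 profiles 1 of the list was called, and centred on the 6 other deletions 2. *FRE2* had signals of 453 and 527.3 in *set2*Δ, against 150.9 and 162 in the reference (log2 1.59 and 1.7, fit 1.64, SE 0.08, adjusted p = 3.49e-08). *FRE7* had 246.6 and 214.1 in *set2*Δ, against 82.3 and 85.1 in the reference, a log2 ratio of 1.46. The 2 reference signals of *FRE7* lie not far above the offset of 50. *FRE5* had log2 ratios of 0.98 and 0.65 and lost its call without array a. *ATX1*, a copper chaperone, was at 0.765, just below the fold minimum, *FRE3* at 0.55, *FRE1* at 0.23 and *CTR1*, the copper transporter, at 0.14. The iron uptake regulon, the targets of the activator Aft1, gave no call among 21 genes, with a median of 0.12. *FIT3* had log2 ratios of 0.36 and 1.05, *FET3* of 0.24 and 0.81 and *ARN1* of 0.35 and 0.78. All 3 were higher on array b than on array a, and without array a *FIT3* and *ARN1* passed it.

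Transporters of peptides, amino acids and drugs were also among the rises. *OPT2*, an oligopeptide transporter, had signals of 262.2 and 236.2 in *set2*Δ, against 95.2 and 93.5 in the reference (log2 1.40, SE 0.07, adjusted p = 5.49e-08). *PTR2*, the transporter of dipeptides and tripeptides, had 792.1 and 816.5 in *set2*Δ, against 338.6 and 290.2 in the reference (log2 1.36, SE 0.07, adjusted p = 3.42e-08). With *SSY1*, the plasma membrane sensor of amino acids (0.95 and 0.74), they were the 3 of 27 permease and sensor genes that rose. None of the 27 fell, and of all features 1.35% rose. *SSY1* lost its call without array a, at 0.71, and under the centrings none and 1 of the list were called. Of 24 ABC transporters and their regulators, a list drawn up after the values were seen, 6 rose and none fell, beside 1.35% of all features that rose. The count was 3 with no background correction, 3 without array a and 1 under either centring. *PDR18*, a plasma membrane transporter, had signals of 291 and 192.8 in *set2*Δ, against 86.3 and 88.0 in the reference, and its log2 ratio was larger on array a (1.75) than on array b (1.13). The others were *PXA2* at 0.96, *NFT1* at 0.86, *PDR15* at 0.80, *VMR1* at 0.79 and *PXA1* at 0.78. The last 3 lost their call without array a. Pxa1 and Pxa2 form the peroxisomal importer of fatty acids. In a list of peroxisome and fatty acid oxidation genes, also drawn up after the values were seen, 5 of 48 rose and none fell, beside 1.35% of all features that rose. The count was 2 with no background correction and none under either centring. The 5 were *PXA1*, *PXA2*, the acyl-CoA synthetase *FAA2* (0.87) and the activators *ADR1* (0.95) and *PIP2* (0.83), and the median of the list was −0.02.

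**Figure D2:**
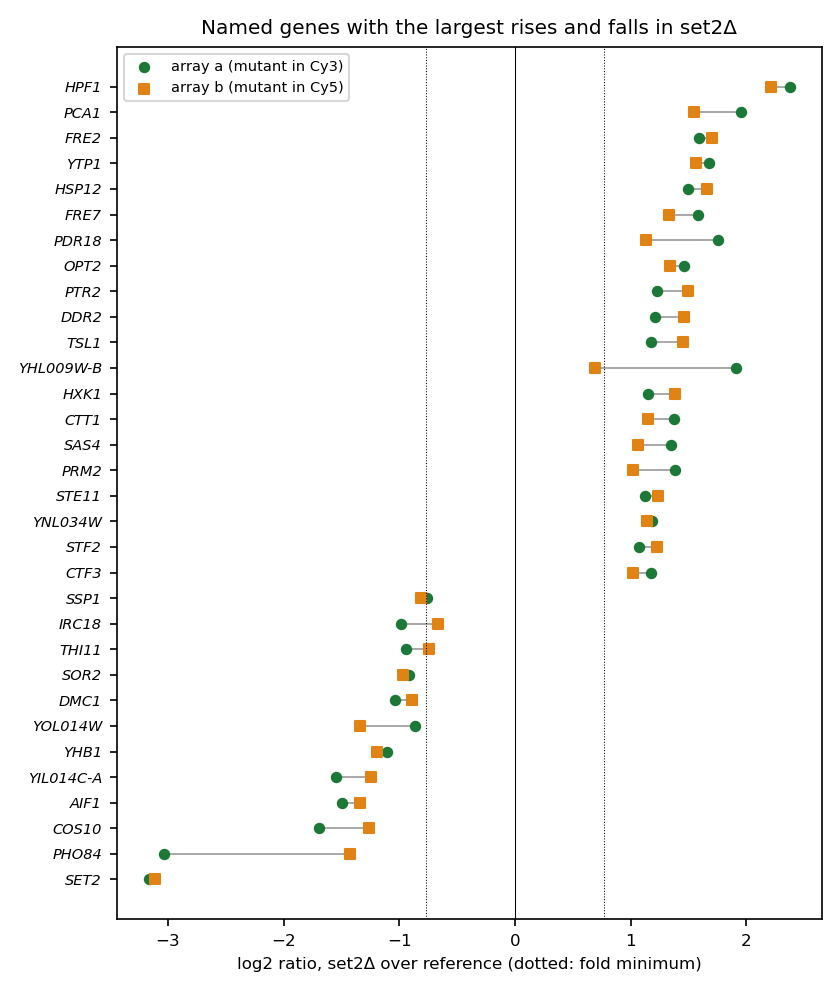
Log2 ratio of *set2*Δ over the reference on array a (circles) and array b (squares) for the 20 named genes with the largest rises and the 12 named falls, with a grey line joining the arrays and dotted lines at the fold minimum of 0.766. Most pairs lie close together, while *YHL009W-B* (1.91 and 0.69) and *PHO84* (−3.04 and −1.43) are spread out.

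Genes of the general stress response were the most numerous group among the rises. Of 38 genes induced by Msn2 and Msn4, the activators that respond to many stresses and to slow growth, 14 rose and none fell, beside 1.35% of all features. The median of the list was 0.66 (0.67 on array a and 0.69 on array b), and 35 of its genes were positive on both arrays. *HSP12*, a small membrane-associated heat shock protein, had signals of 2577 and 3376 in *set2*Δ, against 914.9 and 1069 in the reference (log2 1.58, SE 0.29, adjusted p = 0.00151). *DDR2*, a stress protein of unknown activity, had 1789 and 2102 in *set2*Δ, against 774.4 and 764.7 in the reference. *CTT1*, the cytosolic catalase, had log2 ratios of 1.38 and 1.15, and *HXK1*, a hexokinase of cells on poor carbon sources, of 1.15 and 1.38. These genes were higher in *set2*Δ on both arrays. Glycogen and trehalose genes are part of this response, and 6 of 19 rose, beside 1.35% of all features. Each of the 6 also stands in the stress list and is already counted there. The count was 4 without array a and 2 without array b, none centred on the 12 profiles and 1 centred on the 6 other deletions. The genes encode the trehalose synthase subunits *TSL1* (1.31) and *TPS2* (0.82), the phosphoglucomutase *PGM2* (1.07), the debranching enzyme *GDB1* (1.02) and the glycogen synthases *GSY2* (0.91) and *GSY1* (0.80). *PGM1*, the minor phosphoglucomutase, had a log2 ratio of −0.44.

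The values of the stress genes had larger standard errors than most other rises. An SE here comes from the spread between arrays of all profiles, and does not measure how far the 2 *set2*Δ arrays agree. *GDB1*, at 0.98 and 1.05 on these arrays, had an SE of 0.13, and *YHL009W-B*, at 1.91 and 0.69, one of 0.14. Of the 86 rises, 51 had an SE under 0.1 and 12 an SE of 0.2 or more, and 10 of these 12 were stress genes. Without array a, 7 of the 38 passed the threshold, and without array b, 10. The list also depended on what *set2*Δ was set against: centred on the median of the 12 profiles its median was 0.04, with no member higher and 1 lower, and *HSP12* (−0.38), *DDR2* (−0.05) and *MSC1* (−0.34) changed sign. Centred on the 6 other deletions the median was 0.41, with 2 members higher. In 4 lists of growth and central metabolism there was no call in either direction, namely the 125 cytosolic ribosomal protein genes (median −0.08), 58 ribosome biogenesis genes (−0.03), 20 glycolytic genes (0.01) and 17 TCA cycle genes (0.10). The 27 respiratory chain genes of the nucleus gave none either, with a median of 0.19 and 21 of them positive on both arrays.

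**Figure D3:**
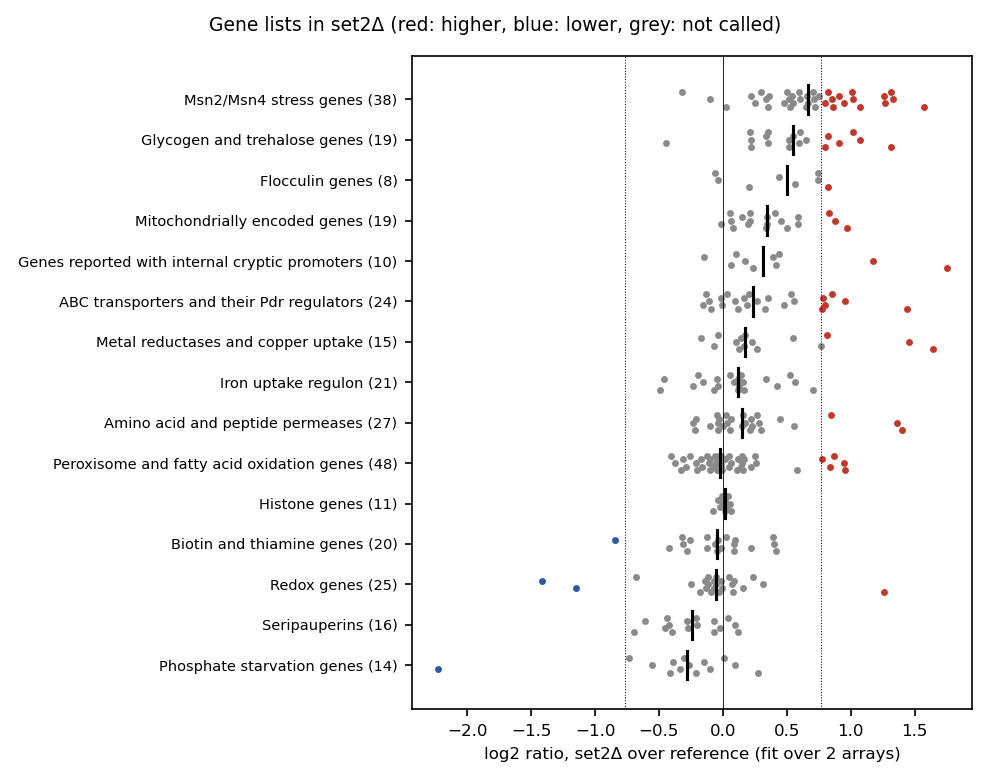
Log2 ratio of *set2*Δ over the reference from the fit over 2 arrays, for each measured gene of 15 lists (number in brackets), with the list median as a black bar and dotted lines at the fold minimum. The Msn2/Msn4 genes are shifted to the right (median 0.66), while among the metal reductases, whose median is 0.18, *FRE2* (1.64) and *FRE7* (1.46) lie to the right of the rest.

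Of the 19 genes encoded in the mitochondrial genome, 3 rose and none fell, beside 1.35% of all features that rose, in a list drawn up after the values were seen. They were *AI1*, a maturase encoded in an intron of *COX1* (1.43 on array a and 0.51 on array b), and the ATP synthase subunits *ATP8* (1.08 and 0.68) and *OLI1* (0.78 and 0.88). The median of the list was 0.54 on array a and 0.15 on array b, and without array a none of the 19 was called, while without array b 6 were. Centred on the 12 profiles none was called, and centred on the 6 other deletions 1 was. The other lists with a call held 1 to 3 called genes each. Among pheromone response genes *PRM2*, a membrane protein of nuclear fusion at mating, rose by 1.20 (1.38 and 1.02) and was the 1 call of 27. *GSC2*, a glucan synthase subunit of stressed and sporulating cells, rose by 1.05 and stood in 3 lists. *GAL4*, the galactose activator, rose by 0.82 among 8 galactose genes, and *ALD4*, the mitochondrial aldehyde dehydrogenase, by 0.95 among 8 aldehyde dehydrogenase genes. *GAL4* lay below the fold minimum with no background correction (0.64) and without array a (0.71). Neither the galactose nor the aldehyde dehydrogenase list held a call under either centring.

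Lists without a call are given by their largest values, none of which passed the threshold. Among nitrogen catabolite genes *DCG1* had log2 ratios of 1.07 and 0.37 and *DUR3*, a urea and polyamine transporter, of 0.69 and 0.67. Among ribonucleotide reductase genes and their regulators *RFX1*, a repressor of DNA damage genes, was at 1.15 on array a and 0.15 on array b, and *HUG1*, a damage-induced inhibitor of the enzyme, at −0.71 and −0.33. *DCG1* and *RFX1* were much higher on array a than on array b. In the list for Gcn4, the activator of amino acid synthesis, the largest values were of genes of other pathways. *BNA1*, of NAD synthesis, was at −0.55 and *SNZ1*, of vitamin B6 synthesis, at 0.40. *MET5* and *MET16*, of sulfate reduction, were at 0.49 and −0.39, and *SHM2* and *ADE17*, of the purine list, both at −0.32. *ERG12* and *ERG26*, of ergosterol synthesis, were at −0.37 and −0.32, the hexose transporters *HXT5* and *HXT6* at 0.33 and 0.31, and the aryl-alcohol dehydrogenases *AAD3* and *AAD15* at −0.43 and −0.35. Among cell cycle genes *CLB6*, an S phase cyclin, was at −0.32 and *SWI4*, a G1 activator, at 0.29. The central metabolic genes with the largest values were *MDH1* (0.39) and *CIT1* (0.35) of the TCA cycle, *COX5B* (0.41) of the respiratory chain, and *GPM1* (0.28) and *FBA1* (0.16) of glycolysis. *NOP53*, a ribosome biogenesis factor, had opposite signs on the arrays, at 0.84 and −0.32.

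Several other large rises fell in no list. *YTP1*, a membrane protein of unknown function, had signals of 457.8 and 472.2 in *set2*Δ, against 143.3 and 160.1 in the reference (log2 1.62, SE 0.09, adjusted p = 8.81e-08). *YNL034W*, a gene of unknown function, had 164.9 and 153.6 in *set2*Δ, against 72.7 and 69.7 in the reference, and its log2 ratios of 1.18 and 1.14 were nearly equal. *CTF3*, a kinetochore protein, rose by 1.10 (1.18 and 1.02). *STF2*, a small hydrophilic protein of stressed cells, rose by 1.15, and lost its call when either array was left out. *YHL009W-B*, an open reading frame of a Ty retrotransposon, had log2 ratios of 1.91 on array a and 0.69 on array b. Ty elements have many near-identical copies, so the copy measured is uncertain. Probes without a gene name made up 15 of the 86 rises and 5 of the 17 falls. The largest, SCAB005262, had signals of 348.1 and 361.8 in *set2*Δ, against 66.3 and 79.0 in the reference, and SCAB003030 had 2848 and 2702 in *set2*Δ, against 618.3 and 560.8 in the reference.

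After *SET2* itself, the largest fall was that of *PHO84*, the high-affinity phosphate transporter. It had signals of 166.3 and 411.7 in *set2*Δ, against 1365 and 1106 in the reference. The groups did not overlap, but the log2 ratio was −3.04 on array a and −1.43 on array b (SE 0.22, adjusted p = 1.17e-05). *PHO84* had log2 ratios of −2.26 for *eaf3*Δ, −2.29 for *rco1*Δ and −2.47 for *ctk1*Δ, and centred on the 6 other deletions its ratio in *set2*Δ was 0.15 and not called. Of 14 measured phosphate starvation genes *PHO84* was the 1 call, beside 0.267% of all features that fell, and the median was −0.28. *SPL2*, the inhibitor of low-affinity phosphate transport, was at −0.84 and −0.63, *VTC1*, of polyphosphate synthesis, at −0.81 and −0.29, and *PHO89*, the sodium-coupled phosphate transporter, at −0.52 and −0.26. On the centring by the 6 other deletions the median of the list was 0.03.

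Of 25 redox genes, *CTT1* rose and *YHB1* and *AIF1* fell, beside 1.35% of all features that rose and 0.267% that fell. *YHB1*, the flavohaemoglobin that detoxifies nitric oxide, had signals of 1510 and 1877 in *set2*Δ, against 3251 and 4284 in the reference (log2 −1.15, SE 0.09, adjusted p = 2.43e-06). *AIF1*, named after the apoptosis-inducing factor of animals, had 260.1 and 247.9 in *set2*Δ, against 732.4 and 627.8 in the reference (log2 −1.42, SE 0.15). Most other named falls were of genes with low signals in *set2*Δ. *COS10*, of a subtelomeric membrane protein family, had 74.7 and 60.5 in *set2*Δ, against 241.6 and 145 in the reference, and was the 1 call among 9 measured *COS* genes. *DMC1*, the meiotic recombinase, was at −1.04 and −0.89, and *SSP1*, a sporulation protein, at −0.76 and −0.82, in a meiosis list of 41 measured genes where *GSC2* rose. *SOR2*, a sorbitol dehydrogenase, was at −0.92 and −0.97, and has a near-identical paralog. *THI11*, of thiamine precursor synthesis, was at −0.94 and −0.75, and belongs to a family of near-identical genes that its probe may not separate. *YIL014C-A* (−1.39), *YOL014W* (−1.10) and *IRC18* (−0.82) have no well-described function. None of the 16 measured seripauperin genes was called, with a median of −0.24 and values of −0.70 for *PAU20* and −0.61 for *PAU4*. With no background correction *DMC1*, *SSP1*, *THI11* and *IRC18* fell below the fold minimum.

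Since transcription from within genes has been described for *set2* mutants, the values were set against coding length in 5273 genes, in 4 classes of near-equal size and as a description with no test. Coding length here is the annotated length of the gene. The median log2 ratio in the shortest class (up to 757 nt) was −0.09 on array a and −0.05 on array b, and in the longest class (from 1911 nt) it was 0.16 and 0.13. In the longest class 82.3% of genes had a positive ratio in the fit, compared with 30.6% in the shortest. Of the named rises with a length, 44 lay in the longest class (3.34% of its genes) and 6, 5 and 13 in the 3 others in order of length, while the 12 falls lay at 3, 6, 2 and 1. The median coding length was 2304 nt for the 68 rises, 1111 nt for the 12 falls and 1242 nt for all genes. Signal level was not the same in the rises. With unnamed probes included, the median signal was 429 over the 86 rises and 560 over all 6373 features. Among the genes below and above the median signal, the longest class still exceeded the shortest, by 0.28 and 0.23 on array a and 0.23 and 0.14 on array b. The difference between longest and shortest class was 0.25 and 0.18 on the *set2*Δ arrays, 0.12 and 0.10 in *eaf3*Δ, 0.14 and 0.10 in *rco1*Δ, 0.18 and 0.13 in *ctk1*Δ and 0.10 and 0.09 in *rtt103*Δ, and −0.02 and −0.06 in *rrp6*Δ and 0.02 and −0.04 in *lrp1*Δ. These profiles share the reference. In the fitted difference of *set2*Δ minus *eaf3*Δ, where the reference cancels, the medians ran between −0.03 in the second class and 0.09 in the longest.

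Among 460 genes of 3000 nt or more, 17 rose (3.70%), and 15 of them were not in the stress list. *CSF1*, one of the longest yeast genes at 8877 nt, had signals of 649.2 and 571.5 in *set2*Δ, against 343.1 and 295.7 in the reference (log2 0.94, SE 0.04, adjusted p = 1.92e-08). *SEN1*, the helicase of the Nrd1 termination complex (6696 nt), had log2 ratios of 0.76 and 0.93. *CCH1*, the plasma membrane calcium channel (6120 nt), had 0.99 and 0.78, and *RAD50*, of the double-strand break repair complex (3939 nt), had 1.02 and 0.91. Each was above its reference on both arrays by more than the difference between the arrays. The rest of the 17 included *PCA1*, *PDR18*, *GSC2*, *ADR1*, *FLO10* and *ATG2*, which acts in autophagy (4779 nt, 1.05 and 0.61).

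**Figure D4:**
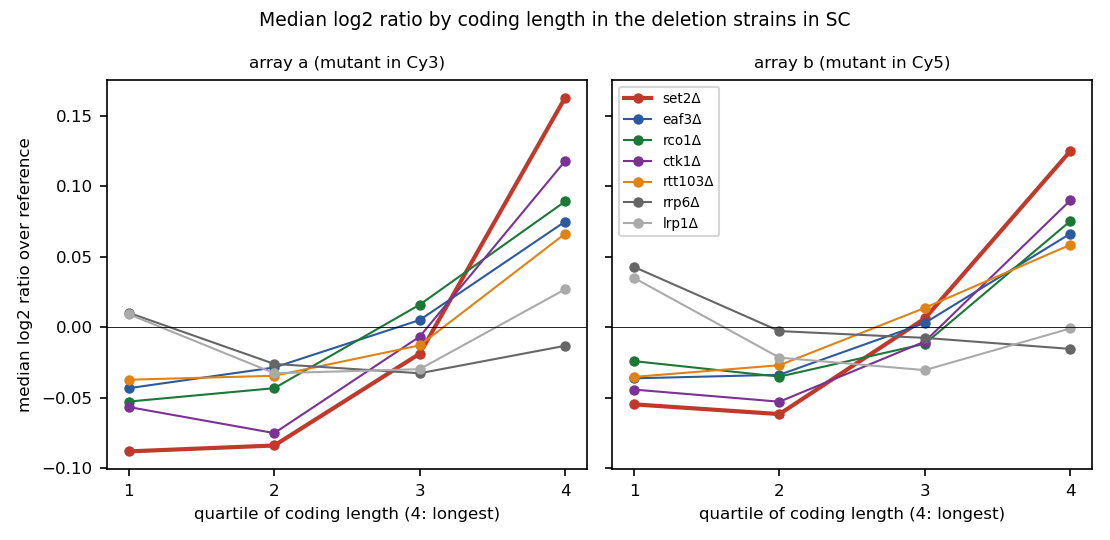
Median log2 ratio over the reference in 4 classes of coding length, from shortest to longest, for 7 deletion strains on their a arrays (left) and b arrays (right). On both arrays *set2*Δ has the lowest median in the shortest class (−0.09 and −0.05) and the highest in the longest (0.16 and 0.13).

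The genes were also grouped by their distance from a chromosome end, counted in genes. Of 221 measured genes among the 10 outermost of a chromosome end, 11 rose (4.98%) and 4 fell (1.81%), while of 3654 genes more than 60 genes from an end 39 rose (1.07%) and 2 fell (0.0547%). The median log2 ratio of the outermost genes was −0.07 on array a and −0.02 on array b. The outermost rises included *PCA1*, *FRE2*, *PDR18*, *OPT2*, *HXK1*, *FLO10* and *VBA3*, a vacuolar amino acid transporter, and the falls were *COS10*, *AIF1*, *SOR2* and *THI11*. These counts are a description without a test, and neighbouring genes are not independent of each other.

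*eaf3*Δ and *rco1*Δ lack the Rpd3S subunits that act on the mark Set2 makes, and direct contrasts asked which genes differed between those strains and *set2*Δ. The reference cancels in a contrast. Set against *eaf3*Δ, *set2*Δ differed in 61 features, 15 higher (0.235%) and 46 lower (0.722%), and against *rco1*Δ in 15 features, 6 higher (0.0941%) and 9 lower (0.141%). The count against *rco1*Δ was 59 without array b of *set2*Δ, 4 without its array a and 6 without array a of *rco1*Δ, and the count against *eaf3*Δ was 16 without array a of *set2*Δ and 15 or 17 without array a or b of *eaf3*Δ. The 86 rises had a median log2 ratio of 0.95 in *set2*Δ, beside 0.66 for *eaf3*Δ, 0.75 for *rco1*Δ, 1.18 for *ctk1*Δ and 0.05 to 0.12 for *lrp1*Δ, *rrp6*Δ and *rtt103*Δ. The 16 falls other than *SET2* had −0.98 in *set2*Δ, beside −0.67, −0.65 and −0.46 in *eaf3*Δ, *rco1*Δ and *ctk1*Δ. These strains share the reference, and the features were chosen in *set2*Δ. Over that reference, 10.1% of features were called for *ctk1*Δ (7.28% higher and 2.84% lower), 0.91% for *rco1*Δ (0.769% higher and 0.141% lower) and 0.785% for *eaf3*Δ (0.549% higher and 0.235% lower).

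The deleted genes led the contrasts, with *EAF3* higher in *set2*Δ than in *eaf3*Δ by 3.15 and *RCO1* higher than in *rco1*Δ by 3.59 on the log2 scale. Apart from these, *PRM2* and *FRE2* were higher in *set2*Δ than in both. *PRM2* had log2 ratios over the reference of 1.38 and 1.02 in *set2*Δ, against 0.20 and 0.03 in *eaf3*Δ and 0.48 and 0.26 in *rco1*Δ. *FRE2* had 1.59 and 1.7 in *set2*Δ, against 0.53 and 0.65 in *eaf3*Δ and 0.78 and 0.90 in *rco1*Δ, a difference of 1.06 from *eaf3*Δ (adjusted p = 0.000517) and of 0.81 from *rco1*Δ (adjusted p = 0.00584). *HSP30*, a stress protein of the plasma membrane, had 0.41 and 0.48 in *set2*Δ, against −0.46 and −0.38 in *eaf3*Δ and −0.36 and −0.40 in *rco1*Δ. *ATP8* and *YLR297W*, a gene of unknown function, were also higher in *set2*Δ than in both, and *CHA1*, the serine and threonine deaminase, and *ARG3*, of arginine synthesis, than in *eaf3*Δ. *ARG3* had 0.23 and 0.30 in *set2*Δ, against −0.90 and −0.93 in *eaf3*Δ, a difference of 1.18 (adjusted p = 6.48e-05). The siderophore transporters *ENB1* and *SIT1* and the iron oxidase *FET3* were higher in *set2*Δ than in *eaf3*Δ by 0.88, 0.86 and 0.80. They were the 3 calls of the 21 iron uptake genes in that contrast, where 0.235% of all features were higher. *PRM2* and *HSP30* lost their calls against *rco1*Δ with array a of *set2*Δ or array b of *rco1*Δ left out, or with no background correction. *FRE2* lost its call against *rco1*Δ without array a of *set2*Δ. *CHA1* lost its call against *eaf3*Δ without any 1 of the 4 arrays, and *YLR297W* likewise against *rco1*Δ, while *ATP8* lost its call against *rco1*Δ without array a of *set2*Δ or either array of *rco1*Δ.

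On the lower side stood *NCE103* and the biotin genes. *NCE103*, the carbonic anhydrase, had log2 ratios of 0.72 and 0.79 in *set2*Δ, against 2.05 and 1.76 in *eaf3*Δ and 2.23 and 1.81 in *rco1*Δ, so that it lay above the reference on all 6 arrays and lower in *set2*Δ by 1.15 and 1.26 (adjusted p = 0.00527 and 0.00584). Both calls were lost without array a of *set2*Δ, with limma adjusted p of 0.0784 and 0.101, and also without array a of *eaf3*Δ and array a of *rco1*Δ, with 0.0722 and 0.081. *BIO3* and *BIO4*, of biotin synthesis, and *BIO5*, which takes up a biotin precursor, were at −0.28, −0.12 and 0.10 in *set2*Δ, against 0.77, 0.83 and 1.18 in *eaf3*Δ and 0.58, 0.80 and 1.02 in *rco1*Δ. All 3 were lower in *set2*Δ than in either strain, and none was called in *set2*Δ over the reference. *YJR154W*, a gene of unknown function, had −0.41 and −0.52 in *set2*Δ, against 0.89 and 0.59 in *eaf3*Δ and 0.56 and 0.45 in *rco1*Δ. *YHB1* was lower in *set2*Δ by 0.85 and 0.88 on the log2 scale. *MF(ALPHA)2*, the minor alpha pheromone gene, was at −0.30 in *set2*Δ, against 0.81 in *eaf3*Δ, and lost its call without array a of *set2*Δ or either array of *eaf3*Δ. *BIO5* lost its call against *rco1*Δ without array a of either strain, and *BIO3* and *YHB1* lost theirs without array a of *set2*Δ. Of the 46 features lower than in *eaf3*Δ, 16 had gene names, and 7 of these were open reading frames of Ty elements, whose copies the probes cannot separate. They lay at −0.25 to −0.51 in *set2*Δ, against 0.46 to 0.68 in *eaf3*Δ. The lower features without a gene name had nearly the same values, at −0.26 to −0.54 in *set2*Δ, against 0.46 to 0.69 in *eaf3*Δ. The 46 may therefore not be separate differences, and whether these probes report the same repeated sequences was not tested.

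**Figure D5:**
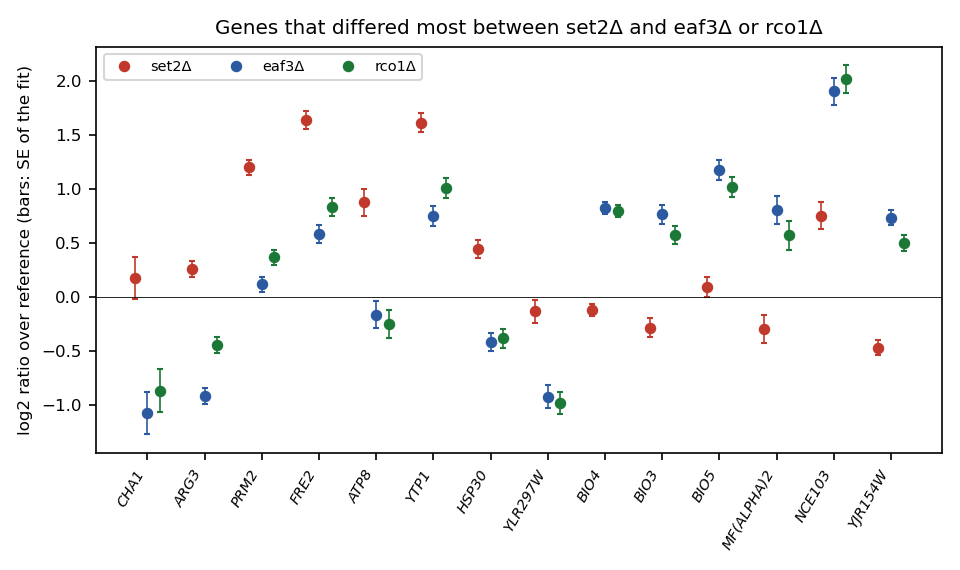
Log2 ratio over the reference in *set2*Δ, *rco1*Δ and *eaf3*Δ, fitted over 2 arrays each with bars for the SE of the fit. Shown are named genes called in *set2*Δ against *eaf3*Δ or *rco1*Δ that are among the largest called differences from either strain or the 6 other deletions. *SET2*, *EAF3* and *RCO1* are left out, as are genes called only against the 6 other deletions. *CHA1*, *ARG3* and *YLR297W* lie near 0 in *set2*Δ and below it in *eaf3*Δ, while *BIO3*, *BIO4* and *YJR154W* lie above 0 in *eaf3*Δ and *rco1*Δ only among these strains.

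Against the mean of the 6 other deletion strains, *set2*Δ differed in 53 features, 23 higher (0.361%) and 30 lower (0.471%), and 24 of the 53 were also called over the reference. *YTP1* led the higher genes, with 1.68 and 1.56 in *set2*Δ, against 0.62 to 1.11 on the arrays of *eaf3*Δ, *rco1*Δ and *ctk1*Δ and −0.08 to −1.09 on those of *lrp1*Δ, *rrp6*Δ and *rtt103*Δ. *FRE2* (difference 1.14), *PRM2* (0.97), *PCA1* (1.01), *FRE7* (0.98), *PDR18* (0.96) and *YNL034W* (0.87) were themselves called in *set2*Δ. *GYP5*, a GTPase-activating protein, lay at 0.28 and 0.22 in *set2*Δ, against −2.31 and −2.51 in *rrp6*Δ and −1.61 and −1.78 in *lrp1*Δ, and *SNR10*, a small nucleolar RNA, at −0.56 and −0.21 in *set2*Δ, against 4.13 and 5.26 in *rrp6*Δ. Neither was called in *set2*Δ over the reference, and their differences come from values of those strains. *HFM1*, a meiotic helicase, had 0.80 and 0.45 in *set2*Δ and lay between −0.95 and −1.45 on the 6 arrays of *lrp1*Δ, *rrp6*Δ and *rtt103*Δ. The iron genes *FIT2* (1.22), *FIT3* (1.09) and *SIT1* (0.95) were higher in *set2*Δ than the mean of the 6, with *FIT2* at 0.0002 and 0.68 on the *set2*Δ arrays. *YJR154W*, *BIO3* and *BIO4* were lower by 1.25, 1.04 and 1.00, and each was negative on both *set2*Δ arrays and positive on all 12 arrays of the other strains. Without array b of *set2*Δ this contrast called 128 features, and against *lrp1*Δ, *rrp6*Δ and *rtt103*Δ alone it called 174, 101 higher and 73 lower. The labels name a plate reader growth protocol for *ctk1*Δ and those 3 strains and none for *set2*Δ, *rco1*Δ and *eaf3*Δ, and its part in the differences was not tested.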

How the data were processed

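RNA of mutant and common reference was hybridised on 2-colour oligonucleotide arrays, 2 spots for each of 6388 probes. The deposited scanner files hold spot intensities in both channels, from which the authors had not subtracted the background. The authors' processed table holds log2 ratios that they normalised and corrected for dye bias. It was used as an alternative, with 6 of its columns, none of *set2*Δ, turned by their correlation with the scanner values. The submitters' processing notes name limma. The scanner software is not given in the sources used here, and neither is the position of a probe within its gene.

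In R 4.3.3 with limma 3.58.1, intensities were background-corrected (normexp, offset 50) and normalised within each array by loess, with control spots at weight 0. The dye labels set the sign of each log2 ratio, mutant over reference, and spots were averaged by probe and then by gene. Of the probes, 5326 had a symbol (58 of them updated through a RefSeq gene table of assembly R64) and 1062 had none. Coding lengths and gene order come from that table. The lengths are those it gives for each gene, and 96.9% are multiples of 3, so some are not lengths of coding sequence alone. All 22 arrays entered 1 fit, in which each of the 12 profiles had its own coefficient beside a term for the dye, which is also the replicate block since replicate letter and dye coincide, and moderated variances (9 residual degrees of freedom, prior 3.7). P-values were adjusted by the Benjamini-Hochberg method over all features. Across 45 pairs of profiles, deviations of same-lettered arrays correlated at −0.361 to 0.763 (median 0.38, 39 pairs over 0.1), so not every pair passed that bound. Letter and dye coincide, so a shared dye and a shared batch cannot be told apart. A spot counted as above background at 2.6 background SD and as saturated from 65000. The number of arrays limits the precision. Tested on simulated data for *set2*Δ over reference with 6373 features, the fit called 0 of 50 features changed 1.5-fold, 49 of 50 changed 2-fold, 50 of 50 each changed 3-fold and 4-fold, and 0 of 6173 unchanged. A 1.5-fold change lies below the fold minimum of 1.7. The simulated noise was independent between arrays and had the spread fitted over all profiles, while the 2 *set2*Δ arrays agreed less than those of other strains. The simulation therefore checks the fit, and does not show how many calls in *set2*Δ are right.

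The text names the deleted gene, the 20 largest called rises and falls with the same sign on both arrays, the 5 largest in each direction of a contrast, called members of the lists, and in most lists without a call the 2 largest values. Further genes were named after their values were seen. The comparisons and lists were chosen with earlier results of these data known, and the lists of mitochondrially encoded, peroxisome and ABC transporter genes after the values were seen. Wild type cultures grown beside the mutants were not analysed here.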

Additional observations from a re-analysis of the deposited data

Results flagged for a closer look

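The values below differ between deletion strains by the test of the difference itself, as log2 of *set2*Δ minus the other strain (limma, adjusted p under 0.05 and the fold minimum). The groups of 2 arrays were too small to look for single outlying arrays. Against *eaf3*Δ the differences were 3.15 for *EAF3*, which that strain lacks, 1.25 for *CHA1*, 1.18 for *ARG3*, 1.08 for *PRM2* and 1.06 for *FRE2*, and −1.08 for *BIO5*, −1.10 for *MF(ALPHA)2*, −1.15 for *NCE103* and −1.21 for *YJR154W*. Against *rco1*Δ they were 3.59 for *RCO1*, which that strain lacks, 1.12 for *ATP8*, 0.851 for *YLR297W*, 0.833 for *PRM2* and 0.829 for *HSP30*, and −0.92 for *BIO4*, −0.922 for *BIO5*, −0.971 for *YJR154W* and −1.26 for *NCE103*. Without array a of *set2*Δ, *NCE103*, *MF(ALPHA)2* and *CHA1* lost their calls against *eaf3*Δ, and *ATP8*, *YLR297W*, *PRM2*, *HSP30*, *BIO5* and *NCE103* against *rco1*Δ. Without array b, *CHA1* lost its call against *eaf3*Δ and *YLR297W* against *rco1*Δ. Without either *eaf3*Δ array *CHA1* and *MF(ALPHA)2* lost their calls, and without its array a *NCE103*. Without either *rco1*Δ array *ATP8* and *YLR297W* lost theirs, without its array a *BIO5* and *NCE103*, and without its array b *PRM2* and *HSP30*.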

How the results depend on the processing

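Of *set2*Δ over the reference, 103 features were called, and 74 to 144 under the other background corrections, normalisations, filters, sample sets and variance priors tried. Leaving out array b gave 161 and array a 81, no fold minimum gave 1705, and centring on the 6 other deletions gave 58 (29 higher, 29 lower) and on the 12 profiles 81 (17 higher, 64 lower), of which 28 and 19 were among the 103. Against *rco1*Δ (15) the count was 25 with an offset of 16, 23 with print-tip loess, 39 with the authors' ratios, 39 with the SC arrays only, 57 without p adjustment and 58 with no fold minimum. It was 4 and 59 without array a and b of *set2*Δ, and 6 and 13 without those of *rco1*Δ. Against *eaf3*Δ (61) it was 200 with no fold minimum, 16 and 73 without array a and b of *set2*Δ, and 15 and 17 without those of *eaf3*Δ. Against the mean of 6 deletions (53) it was 80 with an offset of 16, 1250 with no fold minimum, 43 and 128 without array a and b of *set2*Δ, and 174 against the 3 deletions of the same RNA isolation protocol. Without the replicate block, the dye term, the counts were 103, 53 (*eaf3*Δ), 13 (*rco1*Δ) and 52, and *HSP30* against *rco1*Δ was lost (adjusted p = 0.0572). The settings that leave out an *eaf3*Δ or *rco1*Δ array were chosen after seeing the data.

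Over the named genes and all alternatives, 1487 values kept direction and side of the threshold, 152 fell below it, 14 passed it and 18 changed sign. *GPM1* was at −0.031 with print-tip loess. Without array a and b, *HTB1* was at 0.096 and −0.25, *FBA1* at −0.066 and 0.38 and *NOP53* at −0.15 and 0.68. Centred on the 12 profiles, *HSP12* was at −0.38, *DDR2* at −0.054, *MF(ALPHA)2* at 0.10, *NCE103* at −1.05, *GSC2* at −0.057, *MSC1* at −0.34, *SNZ1* at −0.88, *MET17* at 0.19, *HIS3* at 0.038, *AAD3* at 0.057 and *AAD15* at 0.015. Centred on the 6 deletions, *PHO84* was at 0.15, *NCE103* at −0.91 and *NOP53* at −0.037. Centring sets *set2*Δ against other mutants in place of wild type. The cause of the other shifts was not tested. With 2 arrays and 1 reference, p-values leave out the spread of wild type cultures, and signals near the offset of 50 compress the fold.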

Other observations

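A few features gave opposite signs on the arrays of *set2*Δ, and were picked after their values were seen, as the 6 whose log2 ratios had opposite signs and differed by over 1.5. *PKH2*, a kinase of the sphingolipid signal, had signals of 19390 and 12790 in *set2*Δ on arrays a and b, against 5361 and 21350 in the reference, which gives log2 ratios of 1.85 and −0.74. *RIF2*, a telomere-binding protein, had log2 ratios of 1.60 and −0.74, the transcription factor gene *YAP6* of 1.35 and −0.71, *YDL177C* of 1.60 and −0.71, *AHT1* of 1.06 and −0.56 and the probe SCAB005680 of 1.67 and −0.87. All 6 were higher than the reference on array a and lower on array b, and none was called. Since the dyes were swapped, the Cy3 signal of all 6 exceeded the Cy5 signal on both arrays. The part of the dye in these values was not tested. On the 20 other arrays of the series the same features lay between −0.88 and 1.3.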
